A study of Mus musculus with 12 samples.

Results

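Nuclear pore complex genes were followed in mouse leukaemia cells treated with an inhibitor of cap-dependent translation initiation. The set held 32 genes for nucleoporins and for mRNA export factors that dock at the pore, chosen by name. Earlier results of these data were known when the set and its split by protein size were chosen. A gene was measured by the probe set annotated to its current or former symbol, and where there were several, by that of highest mean signal in the 12 arrays. Of the 32 genes, 30 had a probe set, and all 30 passed the filter on low values, among 13180 genes tested of 19937 named. No probe set was named for Nup35 or Tpr in the annotation used, and they were not analysed here. Rae1 was represented by more than 1 probe set.

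The cells were of clone #483, a T cell acute lymphoblastic leukaemia line of C57BL6 background, so that all groups come from 1 clone. The inhibitor was 4EGI-1, which keeps the scaffold eIF4G off the cap-binding protein eIF4E, given at 100 µM for 2 h. Control cells are labelled untreated, while the protocol text names the solvent DMSO. Polysomal RNA, pooled from sucrose gradient fractions, and cytoplasmic RNA were each profiled on 3 arrays with 4EGI-1 and 3 arrays of control cells, which gives 4 groups and 12 arrays. Cytoplasmic is the labels' word for RNA that the titles call total and that the design text takes from cells, and nuclear RNA may be part of it.

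The nuclear pore complex is the channel through the nuclear envelope for proteins and RNA. Its scaffold is built of an inner ring and of outer rings made of copies of the Y complex, and both are anchored to the membrane by transmembrane nucleoporins. Nucleoporins with phenylalanine-glycine (FG) repeats fill the channel and bind transport receptors, while the cytoplasmic filaments and the nuclear basket receive cargo and release exported mRNA. The subunits range from small WD-repeat proteins to very large scaffold and filament proteins. Dividing leukaemia cells rebuild their pores after each mitosis.

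The starts of the mRNAs are shown because the letters next to the cap are what the cap-binding machinery meets, and because a C followed by a run of C or T there (a terminal oligopyrimidine start) is known from mRNAs of ribosomal proteins. Each window holds 10 bases before the annotated start and 20 from it on, from RefSeq on build GRCm38.p6, on the gene's own strand, with the first 5 transcribed letters in capitals. The 4 genes with the largest difference between their polysomal and cytoplasmic responses come first, and the gene that fell most in polysomal RNA comes last.
Nup205 (chr6:35177606-35177635, plus strand): gagcgctctcTCAGTcctcctccaagatgg
Nup188 (chr2:30286406-30286435, plus strand): gcatgggggcGGGGCtgggccgcgcgcgcg
Nup133 (chr8:123949246-123949275, minus strand): ctctaggcgcCTTCCcgcccctcaggtgtt
Nup98 (chr7:102210147-102210176, minus strand): ctctgacggtGGACGgcgtgtgacgcagtc
Nup37 (chr10:88146982-88147011, plus strand): cgctcgccctCCGACccggaagcagagcgg
A window was used for 28 of the 32 genes, and none for Nup35, Nup43, Nup85 or Seh1l. The 5 letters were searched on the transcribed strand for a C followed by 4 letters that were each C or T. Of the 28 windows 1 held it, that of Nup133, against 673 of the first windows of 27025 genes, or 2.49%. The starts of the other nuclear pore genes that changed most do not hold these letters. An annotated start is not the start used in these cells, which was not measured.

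The values are deposited log2 expression values, and the submitters' processing notes name RMA, which corrects background, normalises arrays and summarises probes. Since arrays are brought to 1 scale, the overall quantity of RNA in polysomes is not measured, and every change is relative to the other genes of the same array. In bulk RNA, fewer cells with a transcript and less of it per cell cannot be told apart. Within groups, arrays correlated across genes at 0.985 to 0.997, and the median standard deviation of a gene was 0.0745 in polysomal control arrays and 0.133 in cytoplasmic control arrays, the lowest and the highest of the 4 groups. Of 15 T cell markers 14 had a probe set and all 14 passed the filter, with group medians of 10.21 to 10.51. For B cells 2 of 5 measured markers passed, for myeloid cells 3 of 6, and for stromal cells 4 of 4, with medians of 4.90 to 5.12, 5.87 to 5.94 and 7.05 to 7.35 over the groups. Of the erythroid markers 1 had a probe set, at 6.29 to 6.35. Values of different probe sets cannot be compared as levels, and the part of other cells in the results was not tested.

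With 4EGI-1, most mRNAs of large nucleoporins rose in polysomal RNA, while in cytoplasmic RNA 1 of them fell, Nup210, and the others did not pass. In polysomal RNA 13 of the 30 genes rose and 3 fell by limma's test at an adjusted p under 0.05, against 13.0% of all genes tested that rose and 12.1% that fell. Genes were called large where the number in the protein's name, its nominal mass in kDa, is over 100 or where the protein is known to be that large, which holds for 12 of the measured genes. Of these 12, 10 rose and 0 fell (an unadjusted p under 0.05 gave 0 that fell as well), with a median log2 change of 0.64. Of the 18 small ones 3 rose and 3 fell, with a median of 0.01, and the median over all genes tested was -0.03. In cytoplasmic RNA 2 genes rose and 2 fell, against 10.1% and 7.79% of all genes, and the median over the large ones was -0.02.

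The test of the difference between these 2 responses, polysomal minus cytoplasmic, was passed upward by 9 genes and downward by 0, where 2.31% of all genes tested passed upward and 0.607% downward. At an unadjusted p under 0.05, 15 genes passed, 2 of them downward. The 9 genes were Nup205, Nup188, Nup133, Nup98, Nup107, Nup155, Nup160, Nup214 and Ahctf1, with differences of 0.47 to 1.04. All 12 large genes had a difference above 0, between 0.34 and 1.04 with a median of 0.69, whereas the median over the small ones was 0.02 and over all genes -0.01. A difference above 0 was not always a polysomal rise. For Nup210 and Pom121 the polysomal changes were -0.10 and -0.11, and the cytoplasmic changes were -0.57 and -0.49. In each of the 9, chosen here by that test, the 3 polysomal 4EGI-1 arrays lay above the 3 polysomal control arrays, and the cytoplasmic arrays of the groups overlapped. Arrays that do not overlap are common in polysomal RNA: 21.6% of all genes tested were higher and 27.1% lower with 4EGI-1 in this way. The share over all genes was not counted for cytoplasmic RNA, so the overlap there has no background. Of the 12 large genes 10 were higher and 0 lower without overlap, and of the 18 small ones 5 were higher and 4 lower. Leaving out cytoplasmic control array 2 gave 11 genes upward and 1 downward, Nup37.

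**Figure D1:**
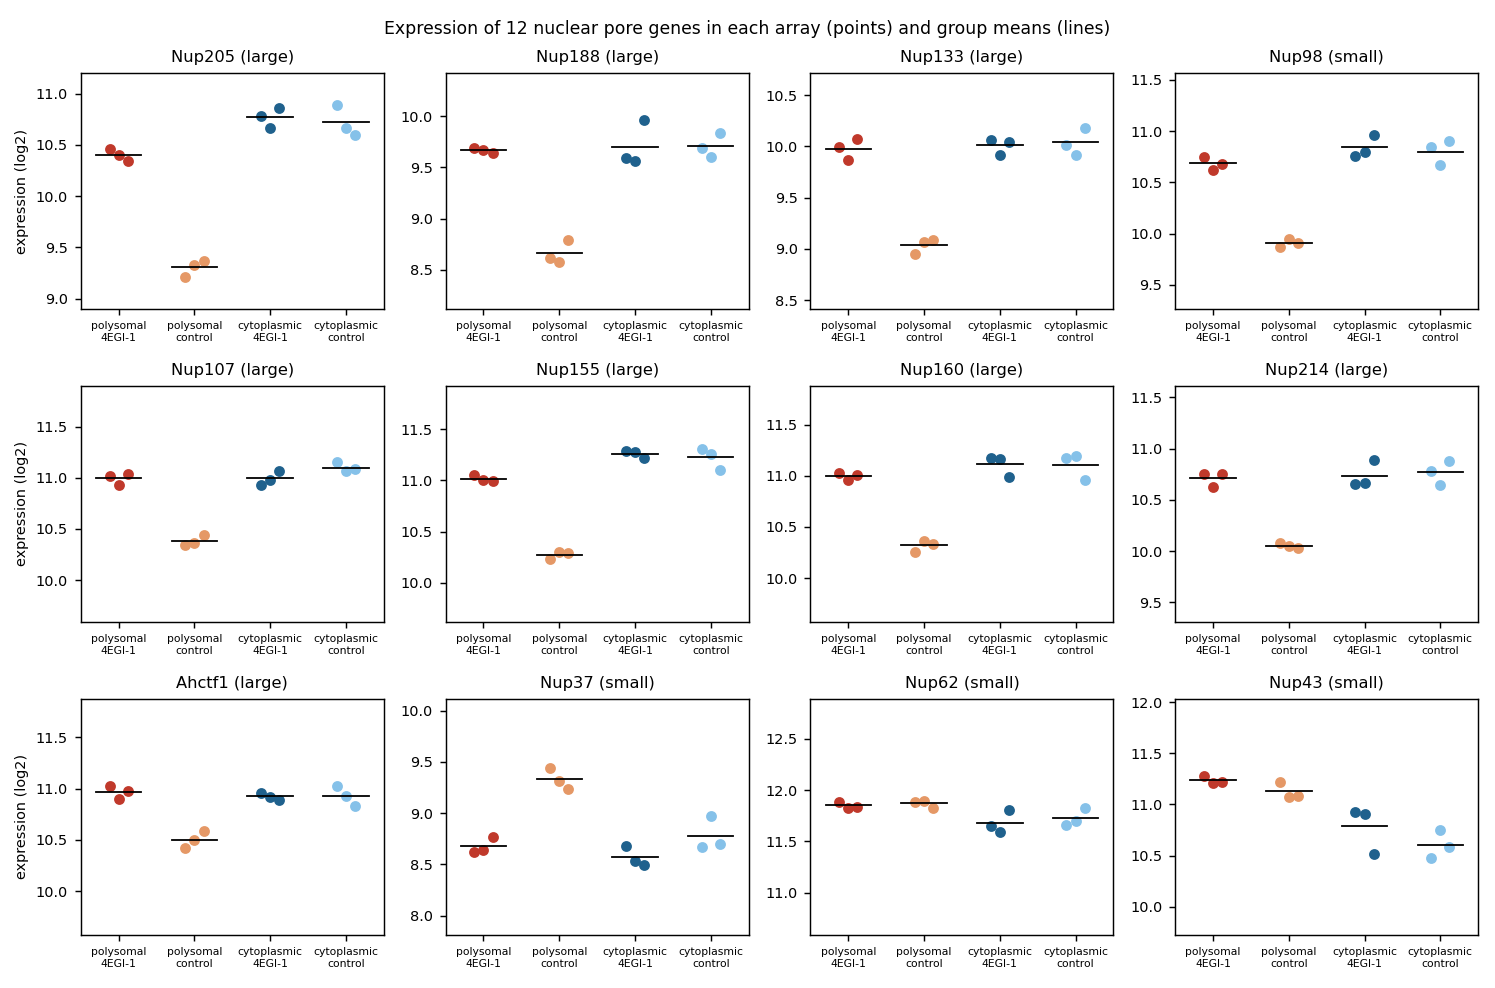
Expression (log2) of 12 nuclear pore genes in each of the 12 arrays (points) with group means (lines), polysomal groups left of cytoplasmic groups and 4EGI-1 left of control, each panel spanning the same log2 range. In the 9 genes from Nup205 to Ahctf1 the polysomal control arrays stand below the other groups, for Nup37 they stand above, and Nup62 and Nup43 show no such gap between the polysomal groups.

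**Figure D2:**
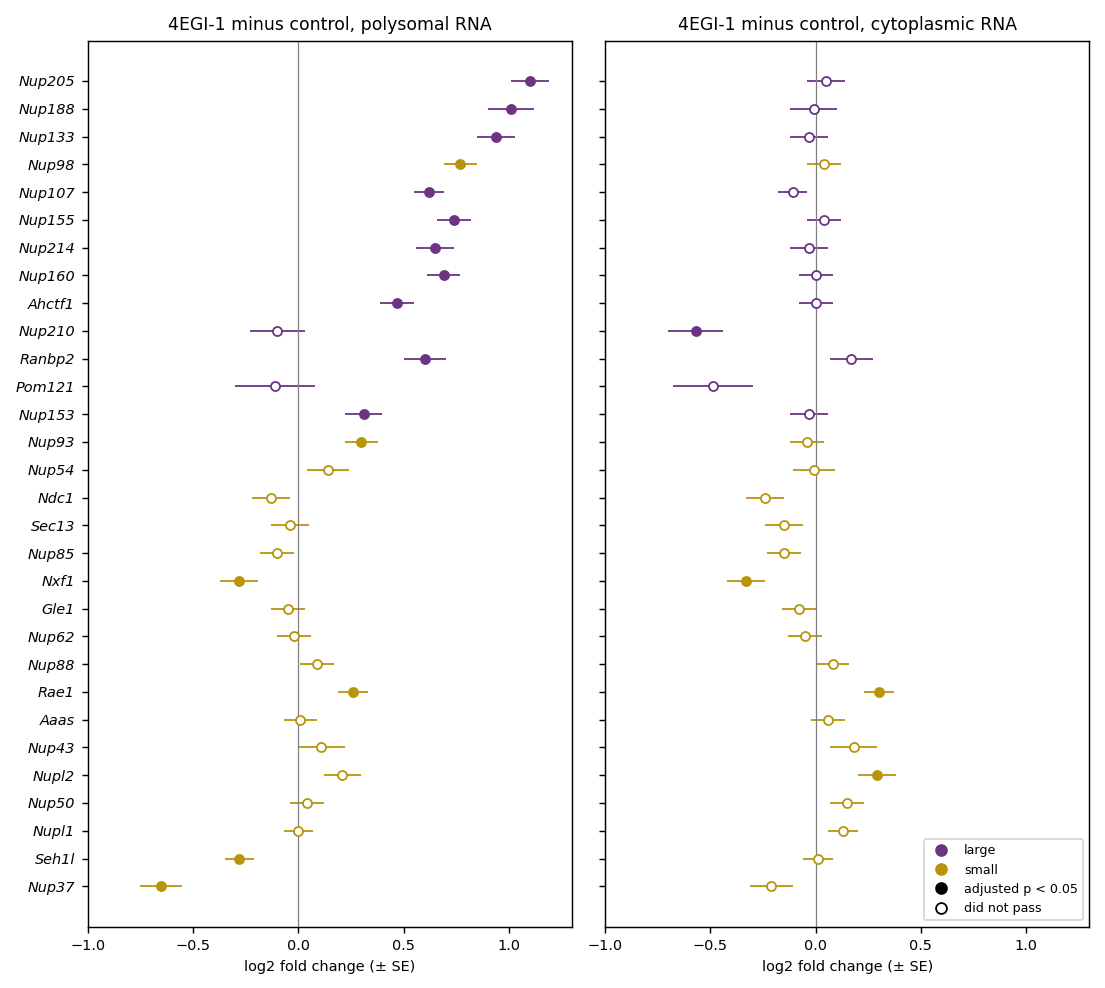
Log2 fold change (± SE from limma) of 4EGI-1 against control in polysomal RNA (left) and cytoplasmic RNA (right) for the 30 genes, ordered by the difference between the panels, with large proteins in purple, small ones in ochre and filled points for an adjusted p under 0.05. The filled points on the left are 13 above 0 and 3 below, and those on the right are 2 above and 2 below.

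The inner ring lines the channel's wall and joins the outer rings to the central channel. All 4 of its measured genes rose in polysomal RNA, against 13.0% of all genes tested, and none of the 4 passed in cytoplasmic RNA. Nup205, a large superhelical scaffold protein bound by Nup93, read 10.46, 10.40 and 10.34 in polysomal 4EGI-1 arrays 1 to 3, against 9.21, 9.33 and 9.37 in polysomal control arrays. In cytoplasmic RNA it read 10.78, 10.67 and 10.86 with 4EGI-1 and 10.89, 10.67 and 10.60 in control arrays. The polysomal groups are thus more than a log2 unit apart in their means while the cytoplasmic arrays intermingle. Nup205 rose 2.14-fold in polysomal RNA (log2 1.10 ± 0.09 SE, adjusted p = 7.52e-07), and the difference between its responses was 1.04 ± 0.13 (adjusted p = 0.000297), which ranks 30 from the top among 13180 genes.

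Nup188, the related scaffold protein that binds Nup93 in place of Nup205, read 9.69, 9.67 and 9.64 in polysomal 4EGI-1 arrays and 8.62, 8.58 and 8.79 in polysomal control arrays. Its cytoplasmic values were 9.59, 9.56 and 9.96 with 4EGI-1, against 9.69, 9.60 and 9.84 in control cells. Array 3 was the highest of its group in both cytoplasmic groups, and the polysomal 4EGI-1 arrays fell inside the cytoplasmic range. The polysomal change was 2.01-fold and the difference 1.02 ± 0.15 (adjusted p = 0.00128). Nup155, a membrane-facing inner ring protein, read 11.05, 11.00 and 10.99 in polysomal 4EGI-1 arrays against 10.23, 10.30 and 10.29 in polysomal control arrays. It read 11.29, 11.28 and 11.22 in cytoplasmic 4EGI-1 arrays and 11.31, 11.26 and 11.10 in cytoplasmic control arrays. The polysomal 4EGI-1 arrays of Nup155 stayed below all 6 cytoplasmic arrays, and the difference was 0.70 ± 0.11 (adjusted p = 0.00156). Nup93, the small linker that holds the ring together, rose 1.23-fold in polysomal RNA (log2 0.30 ± 0.08, adjusted p = 0.0110), a call lost when polysomal control array 2 (adjusted p = 0.0584) or array 1 of the polysomal 4EGI-1 group (0.0578) was left out. Its difference of 0.33 did not pass (adjusted p = 0.158).

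The Y complex forms the outer rings and coats the membrane. Of its 9 measured genes 4 rose and 2 fell in polysomal RNA, against 13.0% and 12.1% of all genes tested. In the difference 4 passed upward, against 2.31% of all genes. The 4 are the large subunits Nup107, Nup133 and Nup160 and Ahctf1, which encodes ELYS, the protein that brings the Y complex to chromatin as pores are rebuilt. Nup133, at the stem's end, read 9.99, 9.87 and 10.07 in polysomal 4EGI-1 arrays against 8.95, 9.07 and 9.09 in polysomal control arrays. Its cytoplasmic arrays read 10.06, 9.92 and 10.04 with 4EGI-1 and 10.01, 9.92 and 10.18 in control cells. The polysomal control arrays lie apart from the other groups, which intermingle. Nup133 rose 1.92-fold in polysomal RNA (adjusted p = 2.4e-06), with a difference of 0.97 ± 0.12 (adjusted p = 0.000451).

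Nup107, Nup133's partner in the stem, read 11.02, 10.93 and 11.04 in polysomal 4EGI-1 arrays and 10.34, 10.36 and 10.44 in polysomal control arrays. Cytoplasmic arrays read 10.93, 10.98 and 11.07 with 4EGI-1, against 11.15, 11.07 and 11.09 in control cells. The polysomal control arrays are again the low group, and the difference was 0.72 ± 0.10 (adjusted p = 0.00105). Nup160, in one of the short arms, read 11.03, 10.96 and 11.01 in polysomal 4EGI-1 arrays against 10.26, 10.36 and 10.33 in polysomal control arrays. Its cytoplasmic values were 11.17, 11.16 and 10.99 with 4EGI-1 and 11.17, 11.19 and 10.96 in control cells. Array 3 was the lowest in both cytoplasmic groups, whose means were 11.11 with 4EGI-1 and 11.10 in control cells, and the difference was 0.69 ± 0.12 (adjusted p = 0.00426). Ahctf1 read 11.03, 10.90 and 10.98 in polysomal 4EGI-1 arrays and 10.42, 10.50 and 10.59 in polysomal control arrays. In cytoplasmic RNA it read 10.96, 10.92 and 10.89 with 4EGI-1, against 11.03, 10.93 and 10.83 in control cells. Its change was smaller than that of the other 3: it rose 1.38-fold in polysomal RNA (adjusted p = 0.000460). Its difference of 0.47 ± 0.11 (adjusted p = 0.0326) was not called without cytoplasmic control array 1 (0.0969), cytoplasmic 4EGI-1 array 1 (0.0627) or 2 (0.0673), polysomal control array 1 (0.106) or 2 (0.0888), or polysomal 4EGI-1 array 1 (0.100) or 3 (0.0953).

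Of the 5 small Y complex subunits, 2 fell in polysomal RNA, against 12.1% of all genes tested. Nup37, a WD-repeat protein bound to Nup160, read 8.62, 8.64 and 8.77 in polysomal 4EGI-1 arrays, against 9.44, 9.31 and 9.24 in polysomal control arrays. Its cytoplasmic arrays read 8.68, 8.53 and 8.49 with 4EGI-1 and 8.67, 8.97 and 8.70 in control cells. Here the polysomal control arrays are the high group and do not overlap any other. Nup37 fell by 0.65 ± 0.10 on the log2 scale in polysomal RNA (adjusted p = 0.000149), to 63.5% of the control level. The difference of -0.44 ± 0.14 did not pass (adjusted p = 0.119), though it did without cytoplasmic control array 2 (0.0217). Seh1l, a WD-repeat protein of the arm, read 9.19, 9.19 and 9.21 in polysomal 4EGI-1 arrays and 9.47, 9.48 and 9.48 in polysomal control arrays. Its cytoplasmic arrays of the groups overlapped, with means of 9.51 with 4EGI-1 and 9.50 in control cells. Seh1l fell by 0.28 ± 0.07 in polysomal RNA (adjusted p = 0.00627), while its difference of -0.29 missed the threshold (adjusted p = 0.152). Nup43 and Sec13, other WD-repeat subunits, and Nup85, which holds Seh1 in the arm, had polysomal changes of 0.11, -0.04 and -0.10 that did not pass. Nup43's cytoplasmic change of 0.18 did not pass (adjusted p = 0.272), but did without cytoplasmic 4EGI-1 array 3 (0.0238) and with array weights (0.00077).

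On the cytoplasmic side, where mRNA is released from its export receptor, 4 of 8 genes rose and 1 fell in polysomal RNA. Of all genes tested 13.0% rose and 12.1% fell. In the difference 2 of the 8 passed upward, against 2.31% of all genes. Nup214, an FG protein that docks the helicase Ddx19, read 10.75, 10.62 and 10.75 in polysomal 4EGI-1 arrays against 10.08, 10.05 and 10.03 in polysomal control arrays. In cytoplasmic RNA it read 10.65, 10.66 and 10.89 with 4EGI-1 and 10.78, 10.64 and 10.88 in control cells. The polysomal control arrays lie apart from the other 9, and the difference was 0.69 ± 0.12 (adjusted p = 0.00583). Nup98, an FG protein found on both faces of the pore, read 10.75, 10.62 and 10.68 in polysomal 4EGI-1 arrays and 9.87, 9.95 and 9.91 in polysomal control arrays. Its cytoplasmic arrays read 10.76, 10.80 and 10.96 with 4EGI-1, against 10.84, 10.67 and 10.90 in control cells. Nup98 stands apart from the other small genes: it was the 1 small gene to pass in the difference (0.73 ± 0.12, adjusted p = 0.00247). Its mRNA encodes a precursor that is cut into Nup98 and Nup96, a Y complex subunit, so the mRNA codes for more than the name says. With Nup98 counted as large, a choice made after its values were seen, 11 of 13 large genes and 2 of 17 small ones rose in polysomal RNA.

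Ranbp2, which encodes the filament protein Nup358, rose 1.51-fold in polysomal RNA (log2 0.60 ± 0.10, adjusted p = 0.000454), with a cytoplasmic change of 0.17 that did not pass (adjusted p = 0.266), but did without cytoplasmic control array 2 (0.0475) and with array weights (0.0351). Its difference of 0.42 ± 0.14 did not pass (adjusted p = 0.159), but did without cytoplasmic control array 3 (0.0323). Rae1, an mRNA export factor that binds Nup98, is 1 of 2 genes that rose in cytoplasmic RNA. It read 9.34, 9.31 and 9.37 in cytoplasmic 4EGI-1 arrays against 8.97, 9.07 and 9.07 in cytoplasmic control arrays. Its polysomal arrays read 9.67, 9.55 and 9.71 with 4EGI-1 and 9.42, 9.36 and 9.35 in control cells. Rae1 was higher with 4EGI-1 by a like amount in either RNA, without overlap of the arrays: 0.30 ± 0.07 in cytoplasmic (adjusted p = 0.00948) and 0.26 ± 0.07 in polysomal RNA (adjusted p = 0.0145). The cytoplasmic call was lost in the fit of only the 6 arrays compared (0.072). The polysomal call was lost without polysomal control array 2 (0.0519) or 3 (0.0566), without polysomal 4EGI-1 array 1 (0.0548) or 3 (0.0724), and with the mean of Rae1's 2 probe sets (0.0577). The dimmer of these had means of 7.91 in polysomal 4EGI-1 and 7.76 in polysomal control arrays, and of 7.62 in cytoplasmic 4EGI-1 and 7.34 in cytoplasmic control arrays.

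Nupl2, or Nup42, a small FG protein that binds Gle1, read 8.21, 8.07 and 8.24 in cytoplasmic 4EGI-1 arrays and 7.81, 7.89 and 7.95 in cytoplasmic control arrays. It rose by 0.29 ± 0.09 there (adjusted p = 0.0318), and had a polysomal change of 0.21 that did not pass (adjusted p = 0.101). The cytoplasmic call did not hold without cytoplasmic control array 1 (0.108) or cytoplasmic 4EGI-1 array 1 (0.106) or 3 (0.0682). Nor did it hold with centring on array medians (0.0904), without the low-value filter (0.0598) or in the fit of only the 6 arrays compared (0.0982). Nxf1, the main export receptor of mRNA, read 11.02, 11.05 and 10.97 in polysomal 4EGI-1 arrays against 11.39, 11.20 and 11.28 in polysomal control arrays. In cytoplasmic RNA it read 10.83, 10.90 and 10.88 with 4EGI-1 and 11.20, 11.04 and 11.38 in control cells. Nxf1 was lower with 4EGI-1 in both RNAs without overlap, and the difference of its responses was 0.05 (adjusted p = 0.922). It fell by 0.33 ± 0.09 in cytoplasmic RNA (adjusted p = 0.0169) and by 0.28 ± 0.09 in polysomal RNA (adjusted p = 0.0296). The cytoplasmic call was lost without cytoplasmic control array 3 (0.0684) or cytoplasmic 4EGI-1 array 1 (0.0673), and in the fit of only the 6 arrays compared (0.0938). The polysomal call was lost without polysomal control array 1 (0.132) or 3 (0.0733) or any of the polysomal 4EGI-1 arrays (0.0726, 0.0554 and 0.104). It was also lost with centring on array medians (0.064) and without the low-value filter (0.0559). Gle1, which activates Ddx19, and Nup88, the partner of Nup214, had polysomal changes of -0.05 and 0.09 that did not pass.

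In the remaining subcomplexes 1 of 9 genes rose in polysomal RNA and 0 fell (0 fell also at an unadjusted p under 0.05). Of all genes tested 13.0% rose and 12.1% fell, so the 1 that rose is near the share over all genes. Of the nuclear basket, Nup153, an FG protein that anchors the basket, rose 1.24-fold (log2 0.31 ± 0.09, adjusted p = 0.0160), which was lost without polysomal control array 2 (0.0831) or polysomal 4EGI-1 array 1 (0.0545) or 3 (0.0576). Its difference of 0.34 did not pass (adjusted p = 0.199), but did without cytoplasmic control array 2 (0.0416). Nup50, which helps to unload importin alpha, had a change of 0.04 that did not pass. The FG proteins of the central channel, Nup62, Nup54 and Nup58 (Nupl1), had polysomal changes of -0.02 to 0.14, and none of the 3 passed in any comparison. By FG repeats, 4 of 10 genes with them and 9 of 20 without them rose in polysomal RNA, against 13.0% of all genes tested. In the difference 2 of 10 and 7 of 20 passed upward, against 2.31% of all genes. Among the FG genes those that rose were Nup98, Nup153, Nup214 and Ranbp2, of which 3 are large.

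The pore membrane genes held the 1 large gene that fell in cytoplasmic RNA, where 7.79% of all genes tested fell. Nup210, a transmembrane protein with a long domain in the envelope's lumen, read 9.48, 9.41 and 9.77 in cytoplasmic 4EGI-1 arrays, against 10.23, 9.75 and 10.38 in cytoplasmic control arrays. Its polysomal arrays read 9.41, 9.38 and 9.44 with 4EGI-1 and 9.43, 9.49 and 9.61 in control cells. The cytoplasmic groups just overlap, at 4EGI-1 array 3 and control array 2, and the spread is wide. Nup210 fell by 0.57 ± 0.13 in cytoplasmic RNA (adjusted p = 0.0086), a call lost in the fit of only the 6 arrays compared (0.0655). Its difference of 0.47 ± 0.19 did not pass (adjusted p = 0.282) but did without cytoplasmic control array 2 (0.0165). Pom121, a transmembrane FG protein, was also low in cytoplasmic control array 2 and high in array 3 of both groups, with values of 9.37, 9.47 and 9.87 with 4EGI-1 and 10.00, 9.58 and 10.60 in control cells. Its cytoplasmic change of -0.49 ± 0.19 did not pass (adjusted p = 0.0904), but did without cytoplasmic control array 2 (0.00447) or 4EGI-1 array 3 (0.0266), with array weights (0.00041) and with the replicate number as a block (0.0225). In cytoplasmic RNA 4 genes fell when control array 2 or 4EGI-1 array 3 was left out, and 1 fell when control array 3 or 4EGI-1 array 1 was. Leaving out control array 1 or 4EGI-1 array 1 left 1 gene that rose there. Ndc1, a membrane anchor of the pore, and Aaas (aladin), which binds it, had polysomal changes of -0.13 and 0.01, and neither passed in any comparison. The cytoplasmic change of Ndc1, -0.24 (adjusted p = 0.0826), passed without control array 2 (0.0197) or 4EGI-1 array 3 (0.0447), with quantile normalization of all arrays (0.0316) or within fractions (0.0336), and with array weights (0.00473).

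The comparison of polysomal with cytoplasmic RNA in the same cells asks how each mRNA is represented in polysomes relative to the other genes. It shares the polysomal and cytoplasmic arrays with the comparisons above, so it describes the same values from another side. In control cells 12 genes were lower in polysomal RNA and 4 higher, against 12.2% and 16.7% of all genes tested. Of the 12 large genes 11 were lower and 0 higher (0 higher also at an unadjusted p under 0.05), with changes of -1.41 to -0.37 and a median of -0.72, where the median over all genes was -0.02. The 1 large gene that did not pass was Pom121, at -0.37 (adjusted p = 0.170), and it did without cytoplasmic control array 2 (0.0094). Of the 18 small ones 1 was lower, Nup98, and 4 were higher, with a median of 0.10.

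Nup205 had the largest gap in control cells, at 37.6% of its cytoplasmic value (log2 -1.41 ± 0.09, adjusted p = 8.31e-08), which ranks 31 from the bottom among 13180 genes. Nup188 followed with 48.4%, Nup133 with 50% and Nup155 with 51.6%, all by limma's test with adjusted p of at most 6.57e-06. Ahctf1 had the smallest of the gaps that passed among large genes, at 74.2% (log2 -0.43 ± 0.08). The higher ones were small proteins. Nup43 read 11.22, 11.07 and 11.08 in polysomal control arrays against 10.48, 10.75 and 10.58 in cytoplasmic control arrays, higher by 0.52 ± 0.11 (adjusted p = 0.00178). Sec13, which also forms the coat of vesicles that leave the endoplasmic reticulum, read 9.88, 9.61 and 9.61 in polysomal and 9.35, 9.36 and 9.48 in cytoplasmic control arrays. Its gap of 0.30 ± 0.09 (adjusted p = 0.0246) was lost without cytoplasmic control array 1 (0.0836) or 2 (0.0537) or polysomal control array 1 (0.138). Nup37 and Rae1, described above, were higher in polysomal RNA by 0.55 and 0.34.

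In 4EGI-1 cells 3 genes were lower in polysomal RNA and 3 higher, against 7.15% and 9.56% of all genes tested. The large genes had a median of -0.07, and 2 of the 12 were lower. Nup205 was lower by limma's test in 4EGI-1 cells (log2 -0.37 ± 0.09, adjusted p = 0.0120), a call lost without polysomal 4EGI-1 array 3 (0.0541) and with centring on array medians (0.0618). Nup155 was lower as well (-0.25 ± 0.08, adjusted p = 0.0332), a call lost without cytoplasmic 4EGI-1 array 1 (0.0924) or 2 (0.0750) or any of the polysomal 4EGI-1 arrays (0.0711, 0.0918 and 0.104). Nup155's call was also lost with centring on array medians (0.171) and without the low-value filter (0.064). Seh1l was the other gene lower in polysomal RNA (-0.31 ± 0.07, adjusted p = 0.00669), and it was the only 1 of the 30 when polysomal 4EGI-1 array 3 was left out. Ranbp2, at -0.30, lay at the threshold (adjusted p = 0.0503) and was called without cytoplasmic 4EGI-1 array 3 (0.0465) or cytoplasmic control array 2 (0.0221) or 3 (0.0192). It was called under 12 of 23 alternatives in all, among them quantile normalization of all arrays (0.0351) and the fit of only the 6 arrays compared (0.0356). The genes higher in polysomal RNA of 4EGI-1 cells were Nup43 (0.45 ± 0.11), Sec13 (0.41 ± 0.09) and Rae1 (0.30 ± 0.07). Rae1's call was lost without polysomal 4EGI-1 array 1 (0.0549) or 3 (0.0619).

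**Figure D3:**
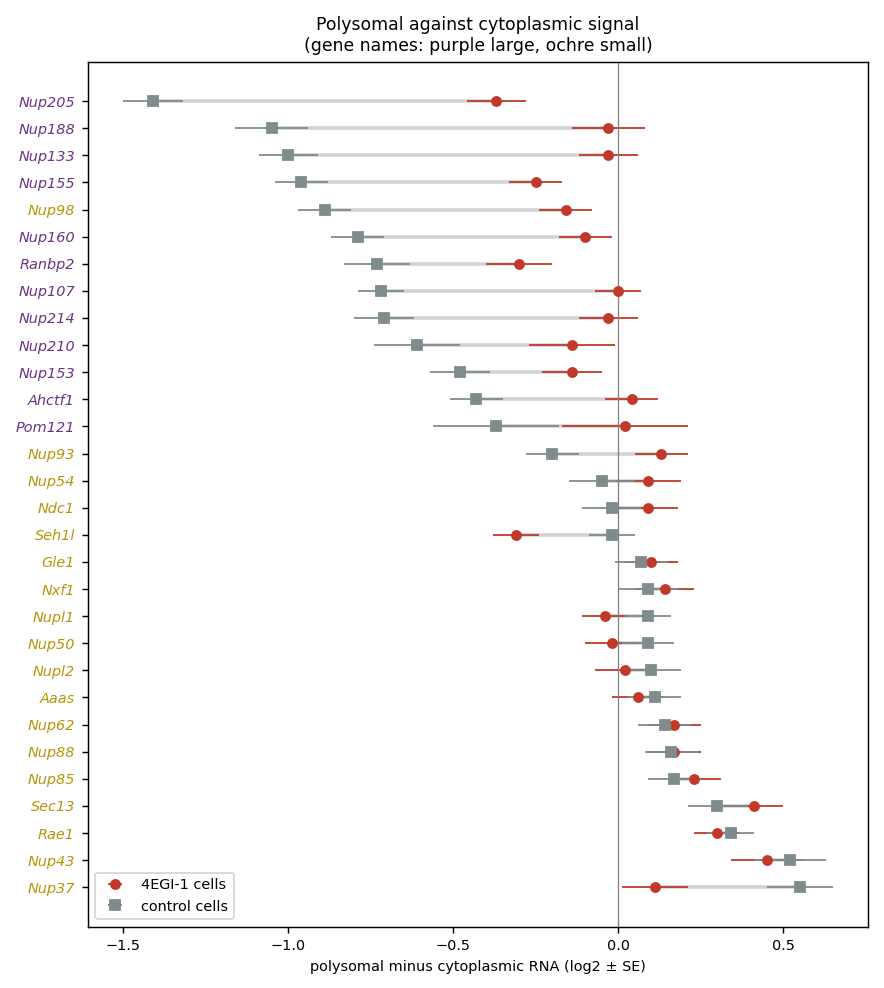
Polysomal minus cytoplasmic log2 value (± SE from limma) of the 30 genes in 4EGI-1 cells (red circles) and control cells (grey squares), ordered by the value in control cells, with names of large proteins in purple and of small ones in ochre. Large genes and Nup98 fill the upper rows, where the control squares reach -1.41 and the 4EGI-1 circles lie between -0.37 and 0.04.

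Put on 1 scale by centring each gene on its mean over the arrays, the large genes had median log2 values of 0.15, 0.06 and 0.12 in polysomal 4EGI-1 arrays, against -0.53, -0.51 and -0.54 in polysomal control arrays. In cytoplasmic RNA the medians were 0.14, 0.12 and 0.24 with 4EGI-1 and 0.26, 0.16 and 0.29 in control cells. The small genes had medians between -0.08 and 0.08 in all 12 arrays, and all genes tested between -0.02 and 0.03. The median of the large genes is thus set apart in the 3 polysomal control arrays, each of which shows it. Nup210 and Pom121 did not follow it. Their polysomal control means of 9.51 and 9.69 lay close to those in polysomal 4EGI-1 arrays, 9.41 and 9.59. In both genes the cytoplasmic control mean was the highest, at 10.12 and 10.06.

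Size was also followed without a split, through the number in the protein's name, which 22 of the measured genes have. Over these 22, the difference between the responses went up with the number (Pearson's r 0.62, Spearman's rho 0.79), and the polysomal minus cytoplasmic value in control cells went down with it (r -0.70, rho -0.79). In 4EGI-1 cells r was -0.69 and rho -0.71, over a narrower range of values. For the polysomal response r and rho were each 0.54, and for the cytoplasmic response r was -0.12 and rho -0.17. These are descriptions across genes that share the same 12 arrays, and genes are not independent replicates. The relation was not a straight line: Nup133, Nup188 and Nup205 had the largest differences, and Ranbp2, with the highest number of 358, had 0.42. Around the dividing number, Nup93 and Nup88 had differences of 0.33 and 0.01, and Nup98, Nup107 and Pom121 of 0.73, 0.72 and 0.38.

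**Figure D4:**
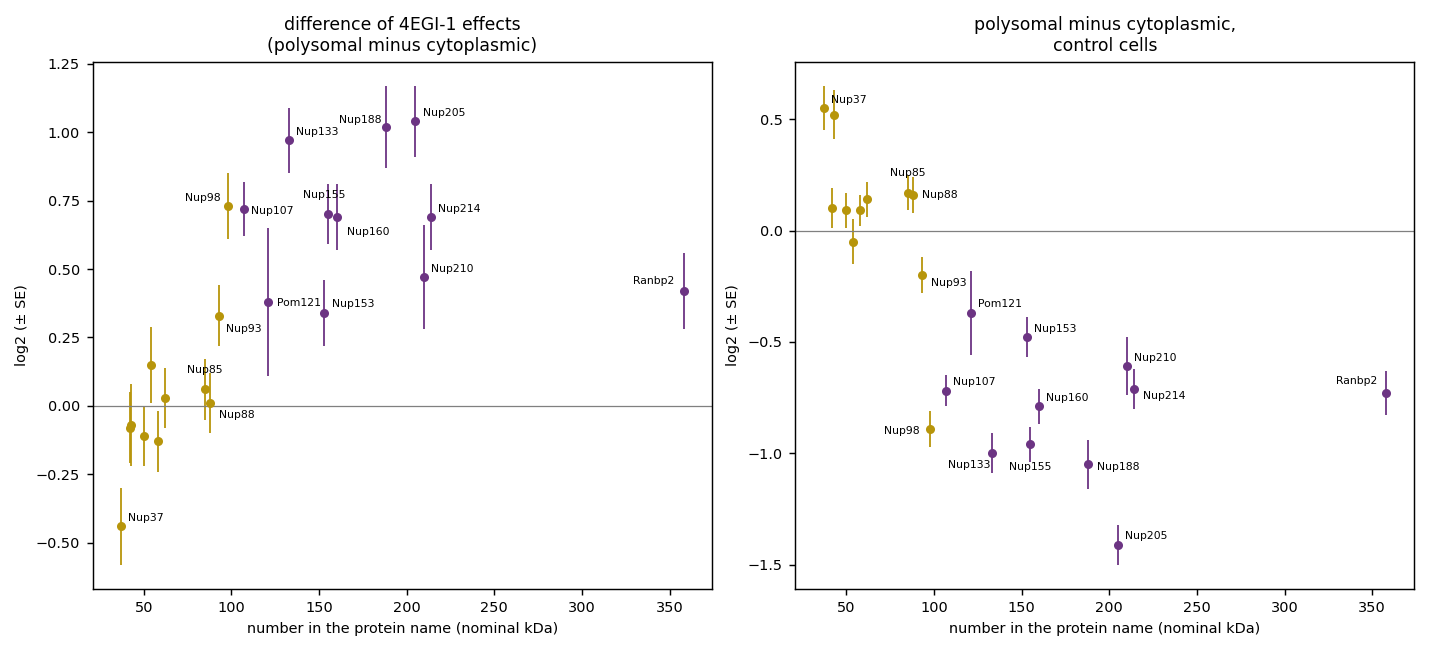
The difference of the 4EGI-1 responses (left, polysomal minus cytoplasmic) and the polysomal minus cytoplasmic value in control cells (right), both as log2 ± SE from limma, against the number in the protein name for 22 genes, large in purple and small in ochre. On the left the genes above 100 lie between 0.34 and 1.04, and on the right all of them lie below 0.

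Transport partners of the pore, genes of the Ran cycle, mRNA export and the nuclear envelope, were read beside the pore genes, and 28 of them were analysed here. None of the 28 passed in the difference by limma (0 upward and 0 downward; 5 had an unadjusted p under 0.05, 2 of them downward), and their median was -0.00. In polysomal RNA 2 rose with 4EGI-1, the export factors Mcm3ap (0.53 ± 0.08) and Thoc2 (0.42 ± 0.10), and 4 fell, against the 13.0% and 12.1% of all genes tested given above. Those 4 were Sem1 (-0.52), the export adaptor Alyref (-0.31), the SUMO protease Senp2 (-0.29) and Thoc3 (-0.22). In cytoplasmic RNA Ddx19b, the helicase that remodels mRNA at the pore, rose by 0.37, while Rangap1, the GTPase activator of Ran, and Alyref fell by 0.35 and 0.31, against 10.1% of all genes that rose and 7.79% that fell. In control cells 9 partners were higher in polysomal than in cytoplasmic RNA, led by Sem1, Ddx19b, Eny2 and Thoc7 (0.62, 0.48, 0.99 and 0.44), and 3 were lower, Mcm3ap, Sun2 and Ddx39b (-0.35, -0.24 and -0.28), where 16.7% of all genes were higher and 12.2% lower. In 4EGI-1 cells 3 were higher, Ddx19b, Sem1 and Thoc6, and 1 was lower, Senp2, against 9.56% and 7.15% of all genes. The partners were not sorted by size, and no size split was made over all genes tested. Whether mRNAs of large proteins outside the pore respond like those of large nucleoporins was therefore not tested.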

How the data were processed

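The deposited series table holds log2 values of 34760 probe sets on 12 one-colour arrays, which the authors made with RMA, per the submitters' processing notes. Its version, and whether the arrays went through it as 1 set, is not given in the sources used here. Array medians lay between 6.40 and 6.56, and no pair of arrays held identical values.

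Names of probe sets come from the platform's annotation table, which can be old: 21640 had 1 symbol, 1321 several and 11799 none. For the 954 genes with several probe sets the one with the highest mean was used. Of 19937 genes, 6757 were left out because their mean lay under log2 6.003, the 40th percentile over probe sets, and 13180 were tested.

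Means of the 4 groups were fitted over the 12 arrays in R 4.3.3 with limma 3.58.1 (lmFit, eBayes without trend, prior with 6.83 degrees of freedom), and 5 comparisons were taken from that fit. P-values come from limma, adjusted over the 13180 genes after Benjamini and Hochberg, with a threshold of 0.05. Errors of changes are standard errors. The script was tested on simulated data. The design text speaks of biological replicates. How separate the cultures were is not stated further, so p-values measure the spread between arrays, which may be technical, and 3 arrays per group limit the precision.

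The 32 genes, the list of transport partners, the markers and the size classes were chosen with earlier results of these data known. Every member was named, with array values for those that passed in the difference of responses and for up to 6 per direction elsewhere. Up to 4 partners were named per direction and comparison. A planned split by protein length, with the same split over all genes tested as background, was not made, since no lengths were used here. For the 32 genes the number in the name (over 100) or textbook size took its place, and the background has no size split. The normalization (quantile over all arrays or within fractions, centring on array medians), the low-value filter, the choice of probe set, the spread model (intensity trend, array weights, only the 6 arrays compared), blocks and left-out arrays were varied.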

Additional observations from a re-analysis of the deposited data

Results flagged for a closer look

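For 9 nuclear pore genes the response to 4EGI-1 differed between polysomal and cytoplasmic RNA by the test of the difference itself (limma, adjusted p under 0.05). The log2 differences, polysomal minus cytoplasmic, were 1.04 for Nup205, 1.02 for Nup188, 0.97 for Nup133, 0.73 for Nup98, 0.72 for Nup107, 0.70 for Nup155, 0.69 for Nup160, 0.69 for Nup214 and 0.47 for Ahctf1.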

How the results depend on the processing

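None of the calls changed direction under the alternatives run. In polysomal RNA 12 of 16 calls, in the difference 8 of 9 (all but Ahctf1) and in control cells 15 of 16 (all but Sec13) held under every alternative run, against 3 of 6 in 4EGI-1 cells and 0 of 4 in cytoplasmic RNA. Of the genes not called, 1 in polysomal RNA, 7 in the difference, 4 in control cells, 5 in 4EGI-1 cells and 5 in cytoplasmic RNA were called under at least 1 alternative. Without the low-value filter Ahctf1's difference missed the threshold (adjusted p = 0.0759). In cytoplasmic RNA 2 genes rose and 2 fell in the main result, 1 rose with centring on array medians and 1 without the filter, 4 rose and 5 fell with array weights, and 0 rose and 0 fell in a fit of only the 6 arrays compared. Array weights gave 14 genes up and 2 down in the difference, and 6 higher in polysomal RNA of 4EGI-1 cells, where centring gave 5 higher and 1 lower. The cause was not tested. Leaving out 1 array at a time gave 1 to 3 that rose and 1 to 4 that fell in cytoplasmic RNA, 10 to 13 and 2 to 3 in polysomal RNA, 8 to 11 and 0 to 1 in the difference, 3 to 4 higher and 12 to 13 lower in control cells, and 2 to 3 higher and 1 to 4 lower in 4EGI-1 cells.

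Samples of the groups share replicate numbers, but the correlations of their deviations (-0.216, 0.562 and 0.516 in cytoplasmic and 0.075, 0.163 and -0.055 in polysomal RNA) do not show them to be pairs. Between polysomal and cytoplasmic RNA they were all above 0, at 0.036, 0.228 and 0.019 in 4EGI-1 and 0.020, 0.141 and 0.125 in control cells, but not all over 0.1 in either. Arrays of different number gave -0.7 to 0.412 in cytoplasmic and -0.156 to 0.091 in polysomal RNA. Between polysomal and cytoplasmic RNA they gave -0.209 to 0.143 in 4EGI-1 and -0.132 to 0.009 in control cells. In control cells all the same-number values were thus above the others. With the replicate number as a replicate block, 13 genes rose and 3 fell in polysomal RNA, 2 and 3 in cytoplasmic RNA (Pom121 was added, adjusted p = 0.0225), and 9 and 0 passed in the difference. In control cells 4 were higher and 12 lower, and in 4EGI-1 cells 4 and 4. A random block joined polysomal and cytoplasmic arrays of the same treatment and number. With it 13 rose and 3 fell in polysomal RNA, 2 and 2 in cytoplasmic RNA, and 9 and 0 passed in the difference. It gave 4 higher and 12 lower in control cells, and 4 and 4 in 4EGI-1 cells.

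Over all genes, 1325 rose and 1027 fell in cytoplasmic RNA, against 2890 and 2667 with array weights and 731 and 369 in the fit of 6 arrays. In polysomal RNA 1717 and 1599 did, against 2346 and 2685 in the fit of 6 arrays. The difference was passed by 305 upward and 80 downward, against 1147 and 1691 with array weights, 214 and 28 without the filter, and 179 and 32 without polysomal control array 1. With centring on array medians 2760 genes were higher and 933 lower in polysomal RNA of control cells, against 2205 and 1614, and 2205 and 427 in 4EGI-1 cells, against 1260 and 942. Ranking by protein length was not run, since no lengths were used here.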
